A study of Microtus ochrogaster and Microtus pennsylvanicus and Peromyscus californicus with 10 samples.

Results

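A set of protein IDs was abundant and of similar level in the brains of 4 rodent species. An ID was a member when all 4 rodent tables listed it, when it had at least 100 RPM in each (reads scaled to a common library total), and when its highest RPM was at most 2 times its lowest. The rule was met by 539 of the 60949 protein IDs in the 10 tables of the series. Of 19750 IDs listed in any rodent table, 9375 were listed in all 4 and 733 of these reached 100 RPM in each. The remaining 194 of the 733 reached the RPM floor but spanned more than 2-fold, and serve below as the abundant IDs outside the set.

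The series measured fore- and midbrain RNA of reproductive males in 10 vertebrate species, and its title frames the question as whether expression profiles are shared among monogamous species. The 4 rodent libraries came from Microtus ochrogaster (prairie vole), Microtus pennsylvanicus (meadow vole), Peromyscus californicus (California mouse) and Peromyscus maniculatus (North American deer mouse). M. ochrogaster and P. californicus are the monogamous species of their genera, which is general knowledge and not a label of the samples. Each species contributed 1 library from a pool of 3 males. No treatment or genetic modification is named for any group, and no ages are stated. With 1 library a species there was no replicate error and no test between species, so every difference below is a difference between libraries.

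Brain RNA from whole regions mixes transcripts of neurons, glia, vessels and blood. Transcripts that nearly every cell needs, such as those for the cytoskeleton, energy metabolism and protein synthesis, are usually abundant in such tissue, as are transcripts that neurons use at synapses. Transcripts of steady level between samples are used in expression studies as reference genes, against which others are scaled. In bulk RNA, fewer cells of a type and less RNA per cell cannot be told apart. The tables hold IDs without gene names, and 0 of the 19750 rodent IDs matched the gene table used here. Members are therefore given by ID, their functions are not stated, and the labelled tissue was not checked against marker genes.

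RPM divides the raw count by 1 constant per library, which was 274693175 reads in M. ochrogaster, 75649532 in M. pennsylvanicus, 84958567 in P. californicus and 101971826 in P. maniculatus. M. ochrogaster thus had the deepest library of the 4. At these depths the floor of 100 RPM by itself keeps any member from resting on few reads. The lowest count of any member was 27598 in M. ochrogaster, 7572 in M. pennsylvanicus, 8532 in P. californicus and 10216 in P. maniculatus. RPM is not divided by transcript length, so the order of IDs within a library is an order of read shares and not of transcript numbers.

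The members together held nearly the same share of the reads in every library. Their summed share of the RPM scale was 21.3% in M. ochrogaster, 21.4% in M. pennsylvanicus, 20.6% in P. californicus and 21.4% in P. maniculatus. Exact binomial 95% intervals, which cover counting error only, were narrower than the last printed digit, for example 20.62% to 20.64% in P. californicus. The 194 abundant IDs outside the set held 13.0% of it in M. ochrogaster, 20.6% in M. pennsylvanicus, 13.3% in P. californicus and 15.4% in P. maniculatus. M. pennsylvanicus stood highest in that second group. In the first it was level with P. maniculatus at the printed digit. The rule bounds each member to 2-fold, so the closeness of the members' sums is a description and was not tested.

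One ID carried more of this share than any other member, though most of the share remained without it. ENSRNOP00000039048 had 33990 RPM in M. ochrogaster, 29579 in M. pennsylvanicus, 24369 in P. californicus and 41837 in P. maniculatus. It ranked first by RPM in both Peromyscus libraries and second in both voles, so all 4 species gave it a leading place. Its highest RPM was 1.72 times its lowest (counting interval 1.71 to 1.72), with the extremes in P. maniculatus and P. californicus. With the libraries scaled by TMM (trimmed mean of M-values) this ratio was 2.05, which is past the limit of the set. Without this ID the members held 17.9% of the RPM scale in M. ochrogaster, 18.4% in M. pennsylvanicus, 18.2% in P. californicus and 17.2% in P. maniculatus.

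Next came members about an order of magnitude lower in reads. ENSRNOP00000058593 had 3767 RPM in M. ochrogaster, 3671 in M. pennsylvanicus, 2724 in P. californicus and 3584 in P. maniculatus. P. californicus was the low library, and the other 3 lay close together. ENSRNOP00000009556 had 2487 and 2160 RPM in the voles (M. ochrogaster first, here and below) and 2777 and 3362 RPM in the Peromyscus mice (P. californicus first). Both voles were below both Peromyscus libraries for this ID. ENSRNOP00000025172 showed the reverse order, with 2504 and 2329 RPM in the voles and 1522 and 1554 RPM in the Peromyscus mice.

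ENSRNOP00000061172 and ENSRNOP00000003932 had a like profile over the libraries. The first had 1944 and 2014 RPM in the voles and 2507 and 1788 RPM in the Peromyscus mice. The second had 1985 and 1849 RPM in the voles and 2462 and 1773 RPM in the Peromyscus mice. For both, P. californicus was highest and P. maniculatus lowest. ENSRNOP00000026920 varied least among the 10 members with the highest minimum, at 1780.5 and 1745 RPM in the voles and 1819.9 and 1566 RPM in the Peromyscus mice. Its highest value was 1.16 times its lowest.

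The other 3 of these 10 differed in which library stood low. ENSRNOP00000037803 was lowest in M. ochrogaster (1438 RPM), against 1984 in M. pennsylvanicus, 2038 in P. californicus and 1804 in P. maniculatus. ENSRNOP00000057753 was lowest in P. californicus (1400.2 RPM), against 2217 and 1996 RPM in the voles and 2268 in P. maniculatus. ENSRNOP00000005987 had 1762 and 1486 RPM in the voles, both above the 1383 and 1338 RPM of the Peromyscus mice. No single library was the low or the high one throughout these 10 members.

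**Figure D1:**
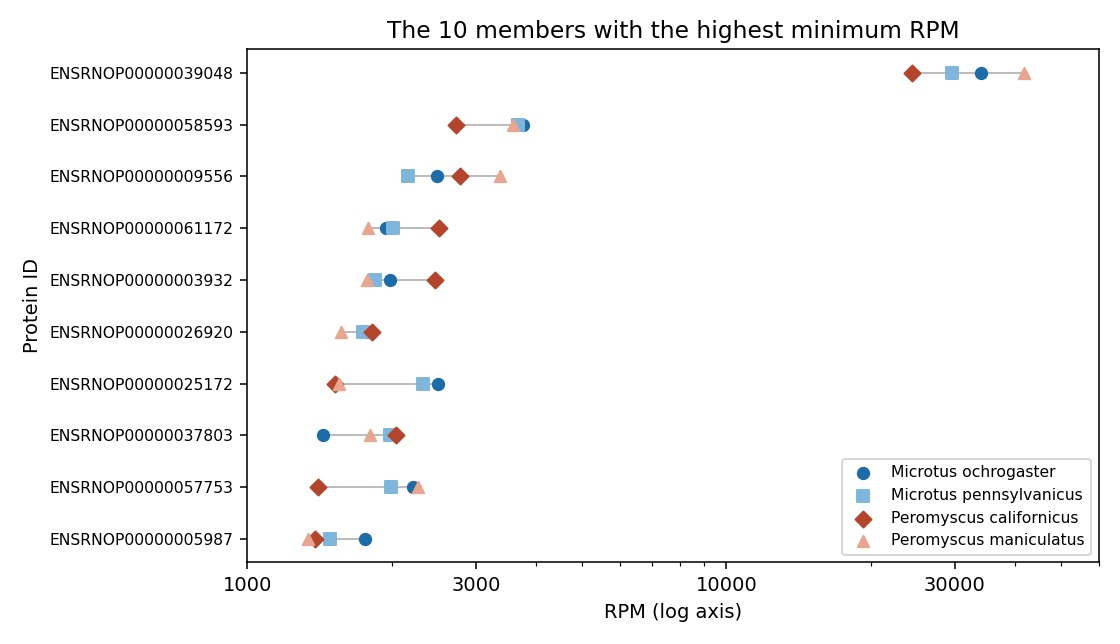
RPM on a log axis (x) of the 10 members with the highest minimum RPM (y), with 1 point per rodent library and a grey line from the lowest to the highest. ENSRNOP00000039048 lies between 24369 and 41837 RPM, far to the right of the other 9, and the species change order from ID to ID.

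Most members were not among the very highest IDs of a library. Of the 10 IDs with the highest RPM in a library, 2 were members in M. ochrogaster and 1 in each of the other 3 libraries. Among the 100 highest, members numbered 38 in M. ochrogaster, 38 in M. pennsylvanicus, 34 in P. californicus and 33 in P. maniculatus. A member's median rank was 674 in M. ochrogaster, 596 in M. pennsylvanicus, 725 in P. californicus and 729 in P. maniculatus. Over all 539 members the median RPM was 229 in M. ochrogaster, 233 in M. pennsylvanicus, 227 in P. californicus and 216 in P. maniculatus. Many IDs that were abundant in 1 species did not meet the rule: members made up 30.2% of the IDs with at least 100 RPM in M. ochrogaster, 31.2% in M. pennsylvanicus, 25.7% in P. californicus and 29.0% in P. maniculatus.

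In RPM, the members with the smallest range had ratios of highest to lowest between 1.06 and 1.12 over the 4 species. ENSRNOP00000023072 had 429 RPM in M. ochrogaster, 409.9 in M. pennsylvanicus, 407 in P. californicus and 417 in P. maniculatus. Its highest value was 1.06 times its lowest (counting interval 1.04 to 1.07). With TMM this ratio was 1.22, and the counting interval does not cover the choice of scaling. ENSRNOP00000015935 had 627 and 637 RPM in the voles and 664 and 671 RPM in the Peromyscus mice, a ratio of 1.07 with both voles below. ENSRNOP00000009100 also had a ratio of 1.07 but the opposite order, with 195 and 199 RPM in the voles and 185 and 190.1 RPM in the Peromyscus mice.

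ENSRNOP00000021258 was the most abundant of these narrow members. It had 1337 and 1301 RPM in the voles and 1428 and 1417 RPM in the Peromyscus mice, with both voles below. ENSRNOP00000004999 had 217, 218 and 219 RPM in M. ochrogaster, M. pennsylvanicus and P. maniculatus, and 202 in P. californicus. Only P. californicus stood apart there. ENSRNOP00000066878 was the counterpart with M. pennsylvanicus apart, at 133 RPM against 119 to 120.2 in the other 3 libraries. The remaining members of the 10 narrowest were ENSRNOP00000020580, ENSRNOP00000014178, ENSRNOP00000008163 and ENSRNOP00000020327, with ratios of 1.09, 1.11, 1.12 and 1.12.

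**Figure D2:**
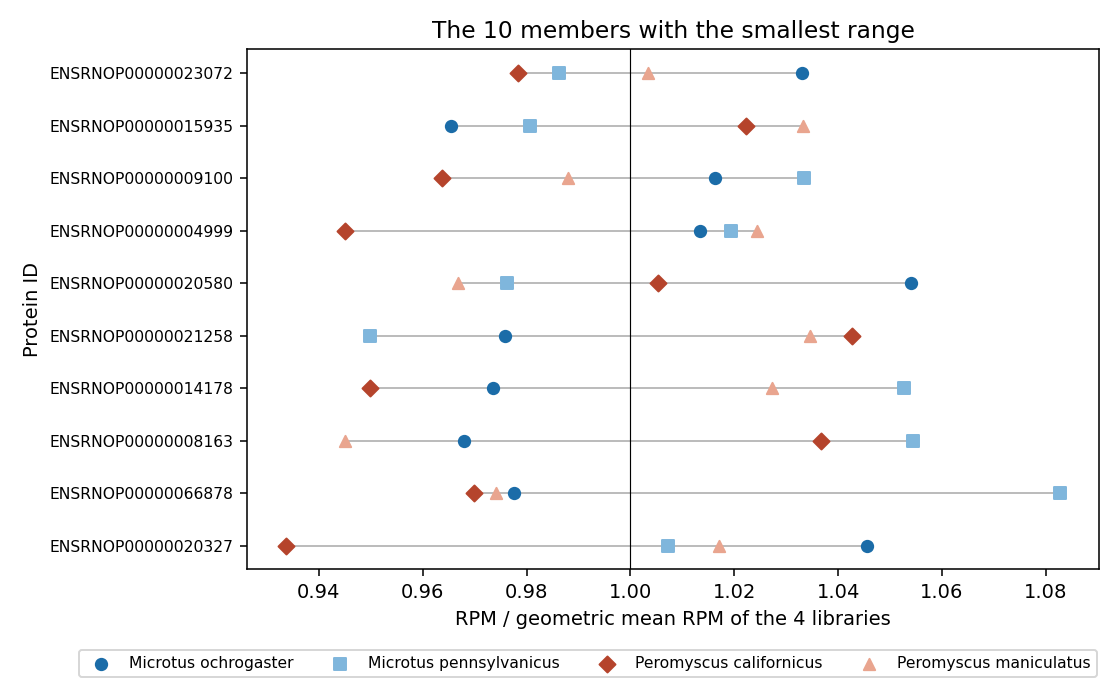
RPM of each library divided by the geometric mean RPM of the 4 libraries (x) for the 10 members with the smallest range (y), with 1 point per library. Every point lies within about 10% of the mean, and no species is on the same side throughout.

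Similar levels did not mean equal levels. The ratio of highest to lowest RPM had a median of 1.48 over the 539 members, with quartiles of 1.34 and 1.65. It was at most 1.2 for 39 members and at most 1.5 for 286. The counting interval of that ratio was above 1 for all 539 members. The 2 libraries were picked as the extremes of each ID and the counts are large, so this count describes the depth and is no test of a difference, and variation between animals is not covered. Over the 9375 IDs listed in all 4 tables the median ratio was 4.79, and 22.3% of them (2086 IDs) were within 2-fold. Of the 733 IDs above the RPM floor, 73.5% were within 2-fold, 92.9% within 3-fold and 99.2% within 10-fold.

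The values near the limits show what the rule separated. At the ratio limit, ENSRNOP00000056912 was just inside, with 307 and 442 RPM in the voles and 235 and 221 RPM in the Peromyscus mice. ENSRNOP00000021851 (779 and 499 RPM, 542 and 391 RPM) and ENSRNOP00000060273 (320.5 and 161 RPM, 208 and 225 RPM) were next. All 3 ratios were just under 2. Just outside were ENSRNOP00000008359 (116 and 226 RPM in the voles, 150.2 and 231 RPM in the Peromyscus mice), ENSRNOP00000009999 (226 and 138 RPM, 113 and 191 RPM) and ENSRNOP00000045635 (371 and 448 RPM, 743 and 571 RPM), the last at 2.01. The counting intervals of all 6 included 2, so counting error alone leaves their side of the limit undecided.

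At the RPM floor, ENSRNOP00000025196 was just inside with 111 and 100.1 RPM in the voles and 117 and 111 RPM in the Peromyscus mice. ENSRNOP00000048314 entered with its 100.2 RPM in P. maniculatus, and ENSRNOP00000042132 with its 100.4 RPM in P. californicus. Just below the floor were ENSRNOP00000010545 and ENSRNOP00000063786, at 99.9 and 99.8 RPM in M. ochrogaster, and ENSRNOP00000025294, at 99.7 RPM in P. maniculatus. In all, 1547 IDs were within 2-fold over the 4 libraries but below 100 RPM in at least 1 of them.

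The share of IDs within 2-fold was larger at higher mean abundance, up to a point. Among the 9375 IDs grouped by their geometric mean RPM, it was 4.84% of 2812 IDs between 1 and 10 RPM, 16.2% of 2752 IDs between 10 and 30 RPM and 33.9% of 2477 IDs between 30 and 100 RPM. It was 49.7% of 965 IDs between 100 and 300 RPM and 69.6% of 227 IDs between 300 and 1000 RPM. Of the 49 IDs at 1000 RPM or more, 25 were within 2-fold (51.0%). The median ratio followed the same course, at 13.6 between 1 and 10 RPM, 1.61 between 300 and 1000 RPM and 1.84 at 1000 RPM or more. Members came from the 3 upper groups, with 356, 158 and 25 IDs in that order. The RPM floor removed 124 of the 480 IDs within 2-fold between 100 and 300 RPM, and none above.

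**Figure D3:**
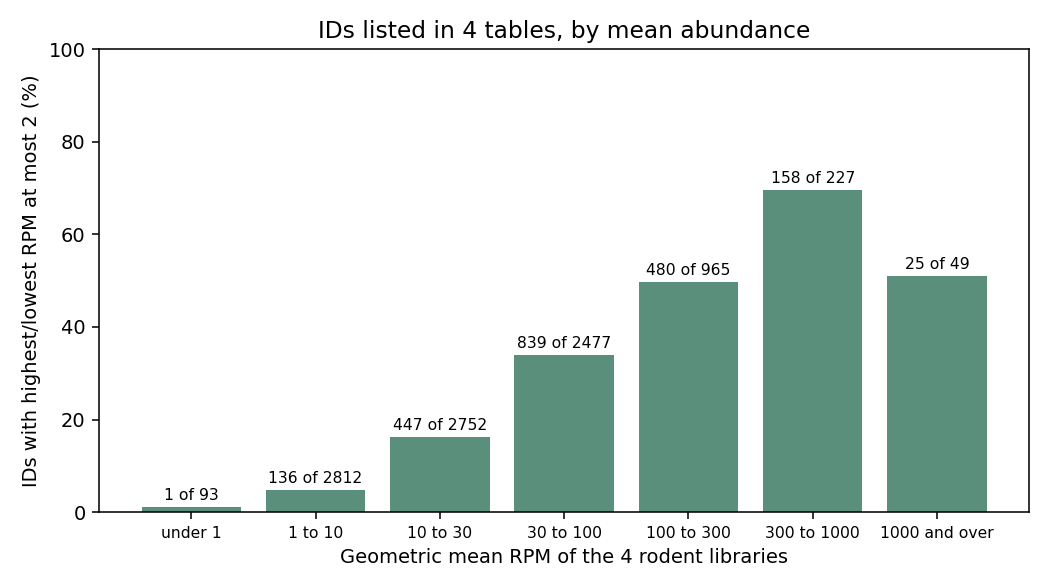
Percent of IDs whose highest RPM was at most 2 times the lowest (y), for the IDs listed in all 4 rodent tables grouped by geometric mean RPM (x), with the counts above each bar. The bars climb from 1 of 93 IDs to 158 of 227 IDs and then drop to 25 of 49.

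Members past 1.5-fold between 2 libraries were most frequent for M. ochrogaster against P. maniculatus and least frequent between the Peromyscus mice. Between M. ochrogaster and P. maniculatus 101 members (18.7%) differed by 1.5-fold or more, with a median fold of 1.24, where the background was 70% of the 9375 IDs and 31.8% of the 733. P. californicus and P. maniculatus differed at 53 members (9.83%), with a median fold of 1.18 and a background of 55.1% and 19%. The voles differed at 87 members (16.1%), with a median fold of 1.22 and a background of 64.8% and 28.2%. M. pennsylvanicus differed at 67 members (12.4%) from P. californicus (background 58.4% and 24.3%) and at 65 (12.1%) from P. maniculatus (61.3% and 24.7%), fewer than from its congener. M. ochrogaster differed from P. californicus at 77 members (14.3%; background 66.9% and 26.7%). The same 2 pairs were the extremes in both backgrounds, and M. pennsylvanicus differed more from its congener there too. This order of the pairs is thus not particular to the members. The counts are in RPM, and the pairs across genera were not rescaled. All of these ratios were limited by the rule. The pairs share libraries, and their counts are not independent.

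In the vole pair, 36 members (6.68%) were at least 1.5-fold higher and 51 (9.46%) at least 1.5-fold lower in M. ochrogaster than in M. pennsylvanicus. The background was 36.8% higher and 28% lower over the 9375 IDs, and 13% higher and 15.3% lower over the 733 IDs above the floor. The rule limited these ratios, so nothing is read from the members' smaller shares. The median log2 ratio of the members was -0.05, beside 0.12 over the 9375 IDs. The split between higher and lower depended on the scaling, and with TMM 19 members were higher and 83 lower. ENSRNOP00000060273 (values above) and ENSRNOP00000042012 had the highest log2 ratios, 0.99 and 0.97. ENSRNOP00000042012 had 231 and 118 RPM in the voles (M. ochrogaster first), with 169 and 119 RPM in the Peromyscus mice. ENSRNOP00000013919 (160.1 against 319 RPM in the voles, 278 and 316 RPM in the Peromyscus mice) and ENSRNOP00000002727 (423 against 840.3 RPM, 706 and 729.8 RPM) were the lowest, both at -0.99. For these last 2 IDs the M. ochrogaster library alone was low.

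In the Peromyscus pair, 34 members (6.31%) were at least 1.5-fold higher and 19 (3.53%) at least 1.5-fold lower in P. californicus than in P. maniculatus. The background was 34.3% higher and 20.8% lower over the 9375 IDs, and 10.9% and 8.05% over the 733. The median log2 ratio of the members was 0.09, beside 0.22 over the 9375 IDs. Relative to RPM, TMM moved every log2 ratio of this pair by -0.26 and every ratio of the vole pair by -0.09. With TMM, 5 members were then higher and 60 lower in P. californicus, so the direction of the majority turned. ENSRNOP00000019825 (311 against 159 RPM, with 171 and 189 RPM in the voles) and ENSRNOP00000025615 (212 against 109 RPM, with 123 and 157 RPM in the voles) had the highest log2 ratios, 0.97 and 0.96. ENSRNOP00000051840 (173 against 323 RPM, with 209 and 188 RPM in the voles) and ENSRNOP00000049419 (103 against 191 RPM, with 114 and 165 RPM in the voles) had the lowest, -0.90 and -0.89.

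Few members were past 1.5-fold in both pairs, and the 2-fold limit of the rule leaves little room for such members. Nothing is read from their smaller shares beside the background. One (0.186%), ENSRNOP00000010856, was higher in both monogamous species, at 475 against 304 RPM in the voles and 428 against 275 RPM in the Peromyscus mice. The background was 15.1% of the 9375 IDs and 1.91% of the 733. With TMM and with DESeq2 size factors, 0 members met this call. Lower in both monogamous species were 5 members (0.928%), where the background was 5.31% and 2.18%. They were ENSRNOP00000007794, ENSRNOP00000010383, ENSRNOP00000033144, ENSRNOP00000039619 and ENSRNOP00000067623, all named after their values were seen. ENSRNOP00000033144 had 197 against 369.7 RPM in the voles and 186 against 287 RPM in the Peromyscus mice. ENSRNOP00000067623 had 101 against 176 RPM and 102 against 182 RPM. With TMM or DESeq2 size factors, 4 of these 5 IDs (all but ENSRNOP00000039619) had ratios past the limit of the set. All 5 kept their call under both scalings, where 15 and 13 members met it. Both scalings lowered every log2 ratio of both pairs, so this outcome was fixed in advance. With counts divided by the listed total of each library (CPM over listed counts), these ratios rose slightly. There 4 of the 5 kept the call, all but ENSRNOP00000039619. In opposite directions 3 members (0.557%) were past 1.5-fold in both pairs, where the background was 19.3% of the 9375 IDs and 2.86% of the 733. With TMM and with DESeq2 size factors 1 member met this call, and it was none of these 3.

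**Figure D4:**
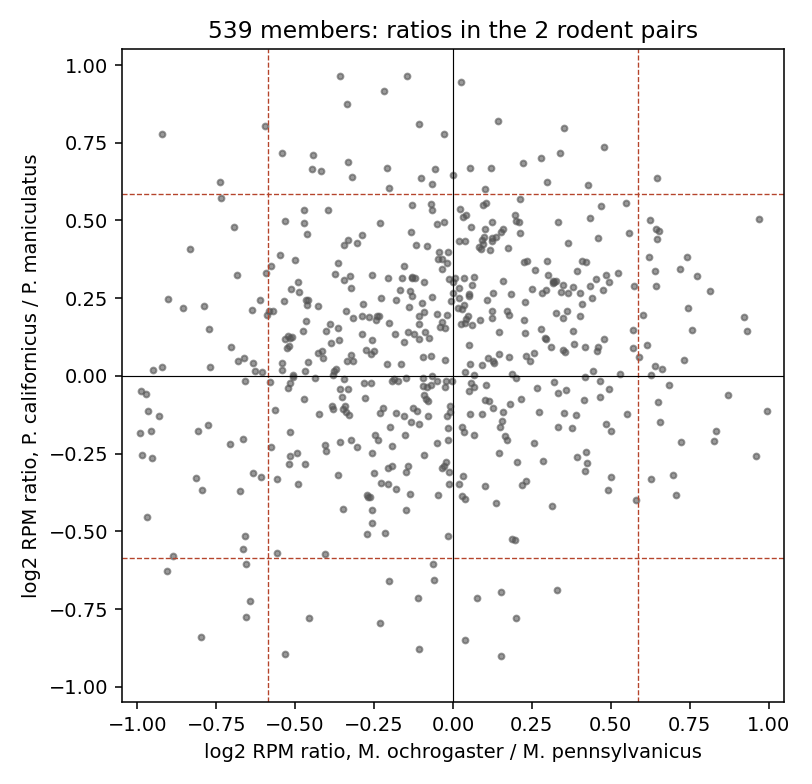
Log2 RPM ratio of M. ochrogaster to M. pennsylvanicus (x) against that of P. californicus to P. maniculatus (y) for the 539 members, 1 point per ID, with dashed lines at 1.5-fold. The rule holds all points within 1 log2 unit on each axis, and 9 lie in the 4 corners past 1.5-fold in both pairs, of which 5 are at the lower left.

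Between the genera, 12 members (2.23%) were at least 1.5-fold higher and 9 (1.67%) at least 1.5-fold lower in the mean of the voles than in that of the Peromyscus mice. The background was 30.5% higher and 30.3% lower over the 9375 IDs, and 10.8% and 7.37% over the 733. ENSRNOP00000019174 had 222 and 225 RPM in the voles against 158 and 119.6 RPM in the Peromyscus mice (log2 ratio 0.70). ENSRNOP00000045523 had 353 and 502 RPM against 261 and 260.3 RPM (0.69). ENSRNOP00000050252 had 228 and 214 RPM against 415 and 405 RPM (-0.89), and ENSRNOP00000060014 had 193 and 178 RPM against 333 and 352 RPM (-0.89). In these 4 members the genera did not overlap, which the 2-fold limit forces at log2 ratios of this size. With TMM, 11 members were at least 1.5-fold higher and 9 lower in the voles. With DESeq2 size factors these were 6 and 12, so the majority turned.

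Each ID has 2 libraries above the other 2, which gives 6 possible orders and places each member in 1 of them. Both voles were above both Peromyscus mice for 115 members (21.3%; background 21.1% of the 9375 IDs) and below for 82 (15.2%; background 18.5%). Both monogamous species were above both nonmonogamous species for 98 (18.2%; background 20.4%) and below for 89 (16.5%; background 10.5%). M. ochrogaster and P. maniculatus were above the other libraries for 52 (9.65%; background 12.6%) and below for 103 (19.1%; background 17%). Over the 733 IDs above the floor, the shares in the same order were 23.3%, 15.3%, 18.3%, 16.2%, 9% and 17.9%. The members are 73.5% of those 733 IDs, so the closeness of the shares says little. The order by mating system depended on the scaling: with TMM the monogamous species were above for 40 members and below for 177. The order of M. ochrogaster and P. maniculatus turned too, with 73 members above and 46 below under TMM and 70 above and 55 below with DESeq2 size factors.

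P. maniculatus was the lowest library most often and the highest least often. It was lowest for 179 members (33.2%) and highest for 95 (17.6%). M. pennsylvanicus was highest for 161 members (29.9%; background 22.3% of the 9375 IDs), M. ochrogaster for 149 (27.6%; 30.9%) and P. californicus for 134 (24.9%; 29.2%). M. ochrogaster was lowest for 160 members (29.7%; background 25.7%), M. pennsylvanicus for 107 (19.9%; 24.1%) and P. californicus for 93 (17.3%; 18.9%). Over the 9375 IDs, P. maniculatus was lowest for 31.3% and highest for 17.6%. The members' shares for P. maniculatus were close to these, so its place is not particular to the members. This place of P. maniculatus turned with the scaling, since under TMM it was highest for 171 members and lowest for 86.

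The variance of log2 RPM among the 4 libraries was divided nearly as in all IDs, although its size was limited by the rule. The contrast of voles with Peromyscus mice took 36.5% of it over the 539 members, that of monogamous with nonmonogamous species 35.0% and the remaining contrast 28.6%. Over the 9375 IDs the shares were 36.7%, 31.9% and 31.3%. These shares were taken in RPM and were not recomputed under other scalings. TMM moved every log2 ratio of the vole pair by -0.09 and of the Peromyscus pair by -0.26. Both shifts move the contrast by mating system the same way in every ID. The order of the shares, and their likeness to those of all IDs, may therefore depend on the scaling. The median SD of log2 RPM over the 4 libraries was 0.26 for the members and 1.02 for the 9375 IDs.

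Because the rule used all 4 libraries, similar level in a further library was looked at by choosing IDs in 3 libraries and reading the one left out. With the same limits, 827 IDs were chosen without M. ochrogaster, 686 without M. pennsylvanicus, 645 without P. californicus and 724 without P. maniculatus. In the library left out, 91.0% of the chosen IDs were within 2-fold of the geometric mean of the other 3 in P. californicus, 87.0% in P. maniculatus, 86.2% in M. pennsylvanicus and 76.7% in M. ochrogaster. IDs that reached 100 RPM in the 3 libraries but spanned more than 2-fold there were within 2-fold in the library left out for 81.8% of 170 IDs, 71.4% of 168, 66.7% of 171 and 66.9% of 154, in the same order. The share was higher for the IDs chosen as similar in all 4 cases. All 539 members were among the IDs chosen as similar and 0 were in the comparison group. The rule itself places the members within 2-fold in the library left out. The shares thus describe a choice made in 3 libraries and give no support for the members. The 4 choices share libraries and IDs, and the difference was not tested.

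The IDs that left the 2-fold band were mostly lower in the library left out. In M. ochrogaster 158 of the 827 IDs were more than 2-fold lower and 20 more than 2-fold higher, and 67 were more than 10-fold away. In P. maniculatus 65 of 724 were lower and 8 higher, in M. pennsylvanicus 52 of 686 lower and 15 higher, and in P. californicus 25 of 645 lower and 10 higher. The 100 RPM floor applied only to the libraries used for the choice, which by itself favours lower values in the one left out, so nothing is read from this direction. A few IDs were not listed at all in the library left out, with 15 in M. ochrogaster, 28 in M. pennsylvanicus, 23 in P. californicus and 21 in P. maniculatus. For the listed IDs the median fold from the mean of the other 3 was 1.34 in M. ochrogaster, 1.22 in M. pennsylvanicus, 1.17 in P. californicus and 1.25 in P. maniculatus. All 539 members were in each of these choices. They made up 65.2% of the IDs chosen without M. ochrogaster and 83.6% of those chosen without P. californicus. In RPM, M. ochrogaster was thus the library that removed the most IDs from the set. Of the 827 IDs, 196 were listed there below 100 RPM and so failed the floor, whatever their range.

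**Figure D5:**
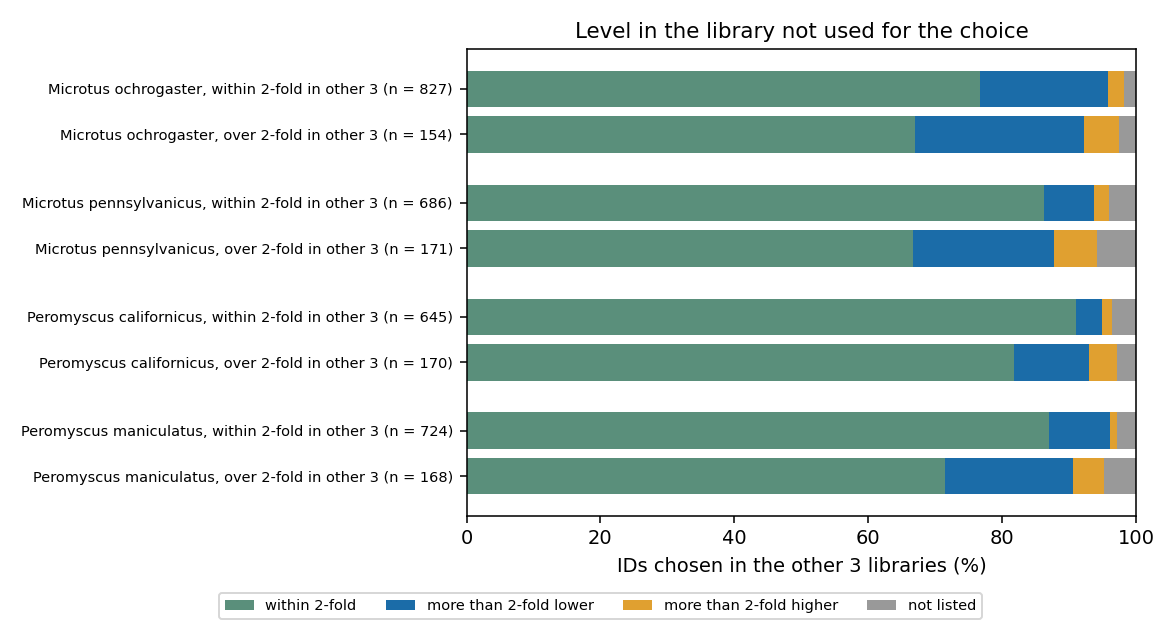
Percent of IDs (x) that were within 2-fold of the mean of the other 3 libraries, more than 2-fold lower, more than 2-fold higher or not listed in the library left out (y, with the number of IDs chosen in the other 3). In each species the upper bar (IDs within 2-fold in the other 3) has the larger share within 2-fold, from 76.7% in M. ochrogaster to 91.0% in P. californicus.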

How the data were processed

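RNA of fore- and midbrain was sequenced from pools of 3 males, 1 library a species. The submitters' processing notes name Trimmomatic, BWA and SAMtools. Their versions and the handling of reads that fit more than 1 protein are not given in the sources here. IDs of near-identical proteins may share reads. The reference is not stated either, but the rodent IDs named here carry the prefix ENSRNOP. Ensembl uses this prefix for proteins of the rat (Rattus norvegicus), which is not among the species sampled. The IDs are thus not each species' own proteins. Whether an ID was listed, and its level, may depend on how well a species' reads fit the rat protein, which was not tested. Per the file headers, the tables hold raw read counts, deposited without normalization, and RPM as deposited by the authors, which is the count scaled by 1 constant per library. That constant is larger than the listed counts add up to.

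Only the 4 rodent tables, which share IDs, were used for values. The members and lists were chosen with earlier results of these data known, and the rule used the RPM of all 4 libraries, so no test was made. Gene lists could not be applied without gene names. A call is a difference of at least 1.5-fold in RPM. Intervals are exact binomial (Clopper-Pearson, 95%), for counting error only. IDs named are the 10 members with the highest minimum RPM, the 10 with the smallest range, the 3 nearest each side of each limit, and the 2 highest and 2 lowest of each contrast, with exceptions stated. Alternatives used TMM factors (edgeR 4.0.16) and DESeq2 1.42.0 size factors over the 9375 shared IDs, other limits and single libraries left out. Python 3.11.15 and R 4.3.3 were used.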

Additional observations from a re-analysis of the deposited data

Results flagged for a closer look

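There were 3 members past 1.5-fold in both rodent pairs but in opposite directions. All 3 were lower in M. ochrogaster than in M. pennsylvanicus and higher in P. californicus than in P. maniculatus. The vole log2 ratio minus the Peromyscus log2 ratio was -1.36 for ENSRNOP00000000635 (202 and 337 RPM in the voles, 307 and 199.6 RPM in the Peromyscus mice). It was -1.70 for ENSRNOP00000023875 (209 and 396 RPM, 345 and 201 RPM) and -1.40 for ENSRNOP00000029234 (122 and 185 RPM, 176 and 101 RPM). Each pair has 1 library a species, so the difference between the pairs was not tested, and these IDs were named after their values were seen. With TMM and with DESeq2 size factors none of the 3 was past 1.5-fold in both pairs.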

How the results depend on the processing

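The number of members was 286 with a ratio limit of 1.5, 995 with an RPM floor of 50, 248 with a floor of 200, and 645 to 827 without single libraries (827 without M. ochrogaster). It was 567 with CPM over listed counts, 687 with TMM and 539 with DESeq2 size factors, which shared 535, 507 and 499 IDs with the 539 members. Some directions among the members turned with the scaling, which shifts every ID of a library alike. With TMM and DESeq2 in that order, the vole pair had 19 and 19 members at least 1.5-fold higher and 83 and 85 at least 1.5-fold lower in M. ochrogaster, the same majority as in RPM. At the same threshold, the Peromyscus pair had 5 and 7 higher and 60 and 49 lower in P. californicus, the reverse of RPM. Also at 1.5-fold, 6 members were higher and 12 lower in the voles than in the Peromyscus mice with DESeq2. Past 1.5-fold in both pairs, 0 and 0 members were higher and 15 and 13 lower in the monogamous species, and 1 and 1 opposite. P. californicus was highest for 67 and 88 members and lowest for 187 and 155, and P. maniculatus highest for 171 and 174 and lowest for 86 and 85. The monogamous species were above for 40 and 42 and below for 177 and 167, and M. ochrogaster with P. maniculatus above for 73 and 70 and below for 46 and 55. Both voles were above for 119 and 104 and below for 84 and 101, the majority as in RPM. Library orders and calls in both pairs were rescaled only after seeing the data. Over listed counts, the members' share of reads was 22.6%, 22.4%, 22.0% and 22.4% in M. ochrogaster, M. pennsylvanicus, P. californicus and P. maniculatus. Of 86 such values under alternatives, 49 stayed within 1.5 times the reported count or within counting error, among them the median range (1.49 with TMM and with DESeq2). Of the 52 named IDs, 20 crossed the ratio limit under at least 1 scaling, ENSRNOP00000039048 among them. No paired analysis was possible because each species has 1 library and the labels give no replicate numbers.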
